A study of Mus musculus with 12 samples.

Results

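The genes described here are 10 cell-surface adhesion molecules in 3T3-L1 cells during adipogenic induction: 6 of the cadherin superfamily (Cdh2, Cdh11, Cdh13, Cdh26, Pcdh7 and Pcdh18) and 4 of the immunoglobulin superfamily (Vcam1, Icam1, Ncam1 and Negr1). They were found by matching gene names in a table of 39423 genes. All 10 were listed, each once. They were chosen by their levels in the 4 conditions of these same libraries, with earlier results in view, so their levels and p-values describe the size of each difference against the spread of replicates and are not independent support for a direction. 3T3-L1 is a mouse preadipocyte line, and every culture received DMI, which is insulin and dexamethasone with the phosphodiesterase inhibitor 3-isobutyl-1-methylxanthine. Control siRNA (siCtrl) or siRNA against the arginine methyltransferase PRMT1 (siPRMT1) was transfected, and mRNA was sequenced after 24 h (day 1) and 72 h (day 3) of DMI, in 3 libraries per condition and 12 in all. Which PRMT1 siRNA was used for sequencing is not stated in the sources used here, and the labels do not say whether replicates came from separate cultures, so the p-values may measure technical spread only.

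Classical cadherins hold neighbouring cells together through calcium-dependent binding of like molecules, and their cytoplasmic tails bind catenins that link them to actin. Cdh13 is unusual in being held by a lipid anchor without a cytoplasmic tail, and protocadherins are a related branch that lacks the classical catenin-binding tail. Immunoglobulin superfamily adhesion molecules bind like molecules on neighbouring cells (Ncam1) or integrins on other cells (Vcam1 and Icam1). Preadipocytes are fibroblast-like, spread cells that round up as they store lipid, and Cdh2 and Cdh11 are characteristic of such mesenchymal cells.

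The promoters of Icam1, Cdh26 and Pcdh18 are shown because they cover the spread in base composition among the members found. They also include the only member of those found with a match to a kB-like motif. Its letters are 1 form of those bound by NF-kB family factors at cytokine-inducible genes, and other forms were not searched. Promoter sequences were found for 5 of the 10 members (Icam1, Negr1, Cdh26, Pcdh7 and Pcdh18) in the RefSeq table on GRCm38.p6. Each is printed 5′ to 3′ on the strand of its gene and ends at the base before the RefSeq start, or for Pcdh18 before the first exon of the count table, and capitals mark matches to the kB-like letters GGNATTTCC, searched on both strands. The Icam1 window is chr9:21015690-21015939 on the plus strand, the Cdh26 window chr2:178430265-178430514 on the plus strand, and the Pcdh18 window chr3:49757383-49757566 on the minus strand, the last shortened to 184 bases to stay outside that exon. For Icam1 the RefSeq start lies before the first exon of the count table, which begins at 21015960. A stretch after the RefSeq start was found near the start of a GENCODE transcript for Cdh26 and Pcdh18, but not for Icam1.
Icam1: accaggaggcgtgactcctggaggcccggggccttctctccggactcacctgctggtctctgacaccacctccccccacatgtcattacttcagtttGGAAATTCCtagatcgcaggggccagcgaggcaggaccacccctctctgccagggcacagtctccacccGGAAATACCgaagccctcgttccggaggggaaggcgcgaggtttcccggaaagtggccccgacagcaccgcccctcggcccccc
Cdh26: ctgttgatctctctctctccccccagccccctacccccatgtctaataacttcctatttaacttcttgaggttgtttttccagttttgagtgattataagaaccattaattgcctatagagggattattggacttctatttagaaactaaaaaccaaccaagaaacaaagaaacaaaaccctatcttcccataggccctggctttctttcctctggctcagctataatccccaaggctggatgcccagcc
Pcdh18: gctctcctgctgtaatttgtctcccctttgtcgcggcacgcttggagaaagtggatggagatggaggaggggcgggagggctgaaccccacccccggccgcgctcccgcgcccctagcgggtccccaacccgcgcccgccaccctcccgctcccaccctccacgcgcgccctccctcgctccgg
The Icam1 window held 2 kB-like matches, both on the opposite strand, beginning 153 and 84 bases before the RefSeq start. Of 32851 promoters of 250 bases, 1.06% held at least 1 such match and 0.0213% held 2 or more. No match lay in the full 250-base windows of Negr1, Cdh26, Pcdh7 or Pcdh18, which were searched before exon bases were removed. By the exons of the count table, the Pcdh7 window begins inside an exon of Pcdh7 and the Pcdh18 window ends in one. For Pcdh7 the search therefore does not describe sequence upstream of the gene. The TATA box letters TATAAA on the gene strand (7.59% of all promoters) and the C/EBP-like letters TTGCNNAA on either strand (9.56%) were in none of the 5. The Cdh26 window held 0 CpG dinucleotides and 42.8% G and C, while Pcdh18 held 19 in 184 bases and Icam1 15 in 250 bases, beside a median of 6 over all promoters. These matches are letters in a window and were not measured as binding.

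Vcam1 had the largest knockdown difference at day 3 among the 9 members tested: it stood at 1.98 times the siCtrl level in siPRMT1 cells, against 0.960 times at day 1. Vcam1 is an endothelial and stromal receptor for the leukocyte integrin VLA-4 and spans bases 116110020 to 116129688 of chromosome 3 in GRCm38, minus strand. Its deposited expression value, in FPKM (counts per length of gene and per library total), was 44.0, 43.5 and 42.2 at day 1 in siCtrl replicates 1, 2 and 3, while siPRMT1 replicates 1, 2 and 3 had 40.3, 44.6 and 43.9. At day 3 it was 12.4, 10.9 and 11.5 FPKM in siCtrl against 23.6, 23.6 and 22.3 FPKM in siPRMT1 cells. These FPKM values overlapped between the groups at day 1 and lay far apart at day 3. FPKM lacks a further library scaling that edgeR applies, given below, so the day 1 overlap depends on the scale. Differences were tested on the deposited counts with edgeR's quasi-likelihood test, with Benjamini-Hochberg adjustment over all genes tested. Genes counted as called had an adjusted p below 0.05 together with a log2 fold change beyond 0.5 in size. For Vcam1 the log2 fold change of siPRMT1 against siCtrl was -0.06 at day 1 (SE 0.0669, edgeR's adjusted p = 0.65) and 0.99 at day 3 (SE 0.0746, adjusted p = 1.0e-06).

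**Figure D1:**
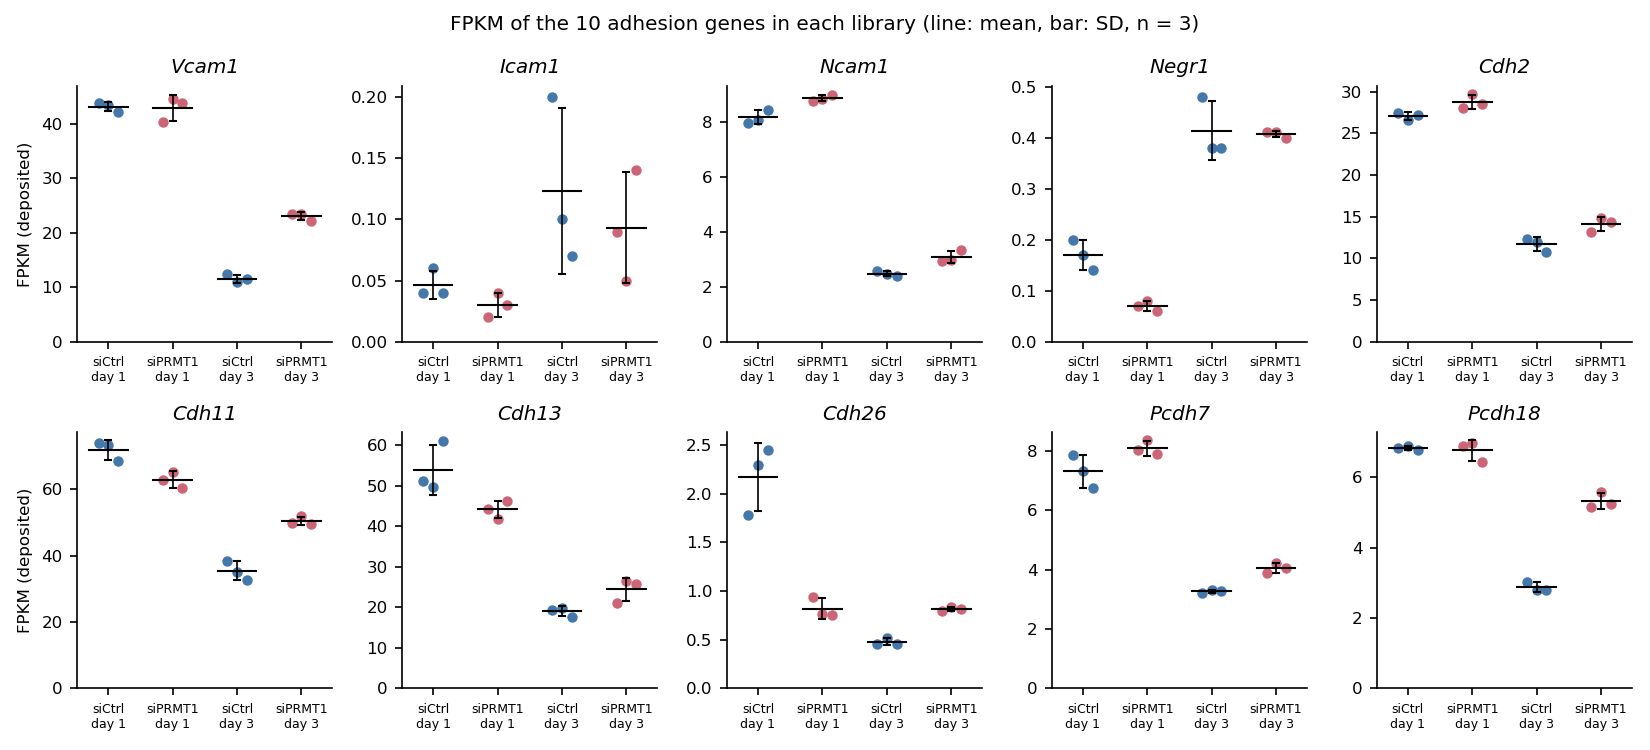
FPKM (y axis, from 0, a separate scale for each gene) of the 10 adhesion genes in each of the 12 libraries, by condition (x axis), with siCtrl in blue and siPRMT1 in red, the mean as a horizontal line and the SD of 3 libraries as a bar. Vcam1, Cdh11, Cdh26 and Pcdh18 stand higher in siPRMT1 than in siCtrl cells at day 3, and Cdh26 and Negr1 stand lower in siPRMT1 cells at day 1.

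Over the members, 0 were called higher and 2 lower in siPRMT1 cells at day 1, out of 9 that passed edgeR's filter on low counts. The shares called among all 13689 genes of that comparison were 1.95% higher and 1.61% lower. At day 3, 4 of the 9 were called higher and 0 lower, beside 2.84% and 3.80% of 14039 genes. At an unadjusted p under 0.05 edgeR also gave 0 members higher at day 1 and 0 lower at day 3, and DESeq2 called 0 in these directions. Over all genes tested, an unadjusted p under 0.05 was reached by 1620 higher and 1754 lower genes at day 1. At day 3 it was reached by 2149 higher and 2239 lower genes. DESeq2 called 245 of all genes higher at day 1 and 417 lower at day 3. The median log2 fold change of the 9 was -0.0671 at day 1 and 0.355 at day 3, against 0.00959 and 0.00728 over all genes tested. FPKM did not overlap between siCtrl and siPRMT1 in 7 of the 9 at day 1 and in 8 at day 3, beside 31.7% and 34.2% of all genes tested. The day 1 count holds for FPKM as deposited, before the further library scaling described below. Because the members were chosen with these contrasts known, nothing is read from the shares. The targeted gene, Prmt1, found on chromosome 7 at 44976755 to 44986420, had a log2 fold change of -1.106 at day 1 (SE 0.0758, edgeR's adjusted p = 0.00098) and of -0.88 at day 3 (SE 0.0883, adjusted p = 1.2e-05).

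Libraries held 15116462 to 42357137 counts on genes, the extremes being siCtrl day 3 replicate 2 and siCtrl day 1 replicate 1. siCtrl day 1 replicate 3 stood apart from its replicates, with a chi-square per gene of 50.6 and 30.8 against them, where the other replicate pairs ran from 4.14 to 15.8. Without it, Negr1 and Cdh26 were still the 2 members called lower at day 1. FPKM is scaled by the library total alone, while edgeR also applies TMM factors, which were 0.9484 to 0.9643 in siCtrl and 1.009 to 1.022 in siPRMT1 libraries at day 1 and 0.9981 to 1.027 at day 3. A log2 fold change at day 1 therefore lies a little below the ratio of the mean FPKM. Overlap of libraries was judged on FPKM without these factors. At day 1 it depends on the scaling for Vcam1, Ncam1, Cdh2, Pcdh7 and Pcdh18, whose groups lie close.

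The other immunoglobulin superfamily members stood at lower levels than Vcam1. Ncam1, which binds Ncam1 on neighbouring cells, spans bases 49502129 to 49799427 of chromosome 9, minus strand. It had 7.97, 8.08 and 8.44 FPKM in siCtrl against 8.76, 8.84 and 8.97 FPKM in siPRMT1 cells at day 1. Its day 3 FPKM was 2.59, 2.47 and 2.39 in siCtrl against 2.93, 2.96 and 3.33 in siPRMT1 cells. In FPKM the siPRMT1 libraries lay above the siCtrl libraries at both days, by margins that were small beside the difference between the days. At day 1 this order depends on the scaling. On the counts the log2 fold change was 0.07 at day 1 (95% interval -0.0740 to 0.210) and 0.30 at day 3 (SE 0.0852, edgeR's adjusted p = 0.024), the latter under the threshold on size.

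Negr1, a lipid-anchored neuronal adhesion molecule whose locus is known from studies of body weight, was scarce and was the only tested member to rise from day 1 to day 3. It spans bases 156561794 to 157316464 of chromosome 3, plus strand. Its FPKM at day 1 was 0.20, 0.17 and 0.14 in siCtrl against 0.07, 0.08 and 0.06 in siPRMT1 cells, from 42 to 121 and 21 to 31 counts per library. At day 3 it was 0.48, 0.38 and 0.38 FPKM in siCtrl against 0.41, 0.41 and 0.40 FPKM in siPRMT1 cells. Negr1 was thus lower in every siPRMT1 library at day 1 and overlapped between the groups at day 3. The log2 fold change was -1.34 at day 1 (SE 0.215, edgeR's adjusted p = 0.012) and -0.04 at day 3 (SE 0.127, adjusted p = 0.85). The day 1 call rested on few counts and was lost in 4 of the 6 fits that left out 1 library. Its adjusted p was 0.054 without siCtrl replicate 2 and 0.066, 0.052 and 0.082 without siPRMT1 replicates 1, 2 and 3.

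Icam1, the integrin ligand that cytokines induce on many cell types, was close to the limit of detection. It spans bases 21015960 to 21028797 of chromosome 9, plus strand. It had 4, 3 and 2 counts in the siCtrl and 1, 3 and 2 counts in the siPRMT1 libraries at day 1. The day 3 counts were 10, 4 and 4 in siCtrl against 5, 3 and 9 in siPRMT1 libraries, or at most 0.20 FPKM. The groups overlapped at both days and edgeR's filter left the gene out of every test. At so few counts no difference in Icam1 was detectable at this depth. Without the filter its log2 fold change was -0.44 at day 1 (SE 0.797, edgeR's adjusted p = 0.81) and -0.36 at day 3 (SE 0.536, adjusted p = 0.74).

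Of the classical cadherins, Cdh11 and Cdh2 were the abundant pair, and of the pair only Cdh11 was called in a knockdown comparison. Cdh11, the cadherin of mesenchymal cells and fibroblasts, spans bases 102632095 to 102785983 of chromosome 8, minus strand. Its FPKM at day 1 was 74.0, 73.4 and 68.5 in siCtrl against 62.9, 65.3 and 60.2 in siPRMT1 cells. By day 3 the siCtrl libraries had 38.4, 35.2 and 32.7 FPKM and the siPRMT1 libraries 49.8, 51.9 and 49.5 FPKM. The siPRMT1 libraries were therefore all lower at day 1 and all higher at day 3. The log2 fold change was -0.25 at day 1 (SE 0.0641, edgeR's adjusted p = 0.055) and 0.50 at day 3 (SE 0.0707, adjusted p = 0.00020). The day 3 value sat at the threshold on size: it was 0.45 without siCtrl replicate 3 and 0.49 without siPRMT1 replicate 2, and then no longer called, with an adjusted p of 0.0024 in both fits.

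Cdh2, or N-cadherin, spans bases 16588877 to 16809246 of chromosome 18, minus strand. It had 27.4, 26.6 and 27.2 FPKM in siCtrl against 28.0, 29.7 and 28.5 FPKM in siPRMT1 cells at day 1. Its day 3 FPKM was 12.4, 11.95 and 10.8 in siCtrl against 13.2, 14.8 and 14.3 in siPRMT1 cells. In FPKM the siPRMT1 libraries lay just above the siCtrl libraries at both days, at day 1 by a margin that depends on the scaling. On the counts the log2 fold change was 0.04 at day 1 (95% interval -0.0944 to 0.168) and 0.26 at day 3 (SE 0.0739, edgeR's adjusted p = 0.023), not called.

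Cdh13, or T-cadherin, is known as a receptor for the circulating forms of adiponectin and spans bases 118140017 to 119324929 of chromosome 8, plus strand. At day 1 it had 51.1, 49.8 and 61.0 FPKM in siCtrl against 44.4, 41.9 and 46.2 FPKM in siPRMT1 cells. By day 3 the siCtrl libraries had 19.4, 19.9 and 17.7 FPKM and the siPRMT1 libraries 21.1, 26.4 and 25.7 FPKM. Its groups did not overlap at either day, and their order turned over between the days, as for Cdh11. For Cdh13, edgeR gave a log2 fold change of -0.34 at day 1 (SE 0.0850, adjusted p = 0.049) and 0.36 at day 3 (SE 0.0864, adjusted p = 0.011), both under the threshold on size. Its ligand gene Adipoq went the other way at day 3, with means of 216 FPKM ± 19.6 in siCtrl and 135 FPKM ± 3.98 in siPRMT1 cells (SD, n = 3), for a log2 fold change of -0.69 (SE 0.0770, edgeR's adjusted p = 2.7e-05). Of the classical adiponectin receptors, Adipor2 had a log2 fold change of -0.33 (SE 0.0684, adjusted p = 0.0037) and Adipor1 of -0.19 (SE 0.0751, adjusted p = 0.10) at day 3, neither called.

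Cdh26, a cadherin described in epithelia, was the member whose knockdown difference turned over most between the days. It spans bases 178430515 to 178487366 of chromosome 2, plus strand. At day 1 it had 1.78, 2.29 and 2.45 FPKM in siCtrl against 0.94, 0.76 and 0.75 FPKM in siPRMT1 cells. By day 3 it had fallen to 0.46, 0.52 and 0.46 FPKM in siCtrl, with 0.79, 0.83 and 0.81 FPKM in siPRMT1 cells. The siPRMT1 libraries all lay below the siCtrl libraries at day 1 and all above them at day 3. On the counts its log2 fold change was -1.45 at day 1 (SE 0.166, edgeR's adjusted p = 0.0035) and 0.76 at day 3 (SE 0.167, adjusted p = 0.0057). Both calls were kept in edgeR's fits without any 1 library, in ranges of -1.59 to -1.36 at day 1 and 0.72 to 0.82 at day 3, from 65 to 269 counts per library at day 1 and 28 to 77 at day 3. On log2(FPKM + 1), which compresses low values, limma gave 0.29 at day 3 (SE 0.0446, adjusted p = 0.027), not called. The epithelial markers Cdh1, Epcam, Krt8 and Krt18 summed to at most 0.120 FPKM at day 1, when Cdh26 was highest in siCtrl cells. At day 3 the sum reached 11.4 FPKM in siCtrl and 6.64 FPKM in siPRMT1 cells. That sum was almost all Krt8 (means of 9.21 and 5.69 FPKM) and Krt18 (2.03 and 0.833 FPKM). Cdh1 and Epcam had means of at most 0.0100 FPKM in every condition.

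Of the protocadherins, Pcdh18 was called higher at day 3 and Pcdh7 was not called at either day. Pcdh18 spans bases 49743291 to 49757382 of chromosome 3, minus strand. At day 1 it had 6.84, 6.89 and 6.78 FPKM in siCtrl against 6.88, 6.97 and 6.42 FPKM in siPRMT1 cells. At day 3 it had 3.03, 2.78 and 2.79 FPKM in siCtrl against 5.15, 5.59 and 5.24 FPKM in siPRMT1 cells. In FPKM the groups overlapped at day 1, which depends on the scaling, and were well separated at day 3. Its log2 fold change was -0.07 at day 1 (SE 0.0749, edgeR's adjusted p = 0.64) and 0.89 at day 3 (SE 0.0862, adjusted p = 9.1e-06).

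Pcdh7 spans bases 57717596 to 58133236 of chromosome 5, plus strand. Its FPKM at day 1 was 7.85, 7.32 and 6.75 in siCtrl against 8.02, 8.36 and 7.88 in siPRMT1 cells. At day 3 it was 3.21, 3.32 and 3.27 FPKM in siCtrl against 3.89, 4.21 and 4.05 FPKM in siPRMT1 cells. In FPKM the siPRMT1 libraries were above the siCtrl libraries at both days. At day 1 the margin was smaller than the range of the siCtrl libraries and depends on the scaling. For Pcdh7 the log2 fold change was 0.09 at day 1 (SE 0.0801, edgeR's adjusted p = 0.52) and 0.31 at day 3 (SE 0.0753, adjusted p = 0.012), neither called. A gene on the opposite strand overlaps exons of Pcdh7 and another those of Ncam1, but these held 6 and 53 counts in all 12 libraries against 20264 for Pcdh7 and 17656 for Ncam1.

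**Figure D2:**
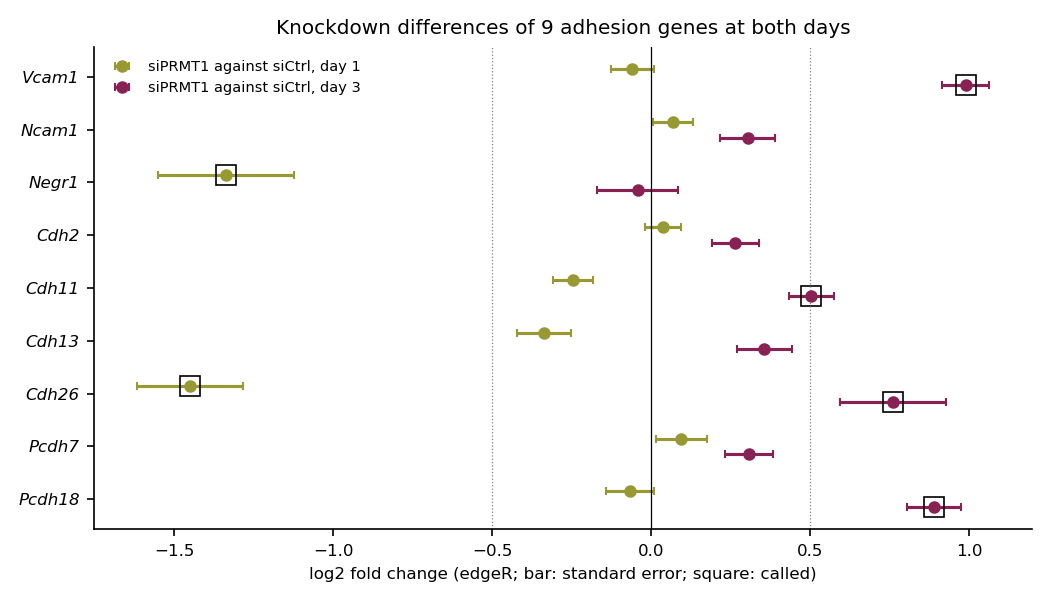
The log2 fold change of siPRMT1 against siCtrl (x axis, edgeR, bars: standard error) for the 9 adhesion genes tested (y axis), at day 1 in olive and at day 3 in purple, with squares around called values and dotted lines at the threshold on size. At day 3, 8 of the 9 values lie above 0, from 0.26 to 0.99, while at day 1 the called values are those of Negr1 and Cdh26, at -1.34 and -1.45.

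The difference between the days was tested itself, as the interaction of siRNA and day over all 12 libraries. It was called in 6 of the 9 members, as a more positive knockdown difference at day 3 than at day 1, with 0 called the other way by edgeR or DESeq2 and 0 at an unadjusted p under 0.05. Among all 14612 genes tested, 4.77% were called more positive and 3.47% more negative. At an unadjusted p under 0.05, 1708 of all genes were more negative, and DESeq2 called 502 more negative. The log2 value was 2.23 for Cdh26 (SE 0.232, edgeR's adjusted p = 3.8e-05), 1.32 for Negr1 (SE 0.235, adjusted p = 0.0025) and 1.07 for Vcam1 (SE 0.0942, adjusted p = 8.2e-06). For Pcdh18, Cdh11 and Cdh13 it was 0.98, 0.77 and 0.72, with adjusted p of 5.1e-05, 0.00011 and 0.0040. The 6 were called in every fit without 1 library. For Ncam1, Cdh2 and Pcdh7 the difference was 0.25, 0.25 and 0.23, with adjusted p of 0.12, 0.10 and 0.15, and their 95% intervals reached 0.471, 0.449 and 0.443. The interaction was formed by opposite shifts at the 2 days in Cdh26, mainly by day 1 in Negr1, and mainly by day 3 in Vcam1 and Pcdh18.

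From day 1 to day 3 of DMI, the adhesion genes other than Negr1 and Icam1 fell in siCtrl cells. In siCtrl cells 8 of the 9 tested members were called lower at day 3 and 1, Negr1, higher, beside 20.4% and 22.7% of all 13829 genes. In siPRMT1 cells 5 were called lower and 1 higher, beside 17.4% and 19.0% of 14224 genes. The median log2 fold change over the members was -1.33 in siCtrl and -0.868 in siPRMT1 cells, against -0.00417 and 0.00218 over all genes tested. The 2 courses share their libraries with the knockdown comparisons and are the same values set the other way, so they add no separate evidence.

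Ncam1, Cdh2 and Pcdh7 fell in both kinds of cells, with log2 fold changes of -1.79, -1.28 and -1.23 in siCtrl against -1.54, -1.04 and -1.01 in siPRMT1 cells. Vcam1 fell by 1.97 on the log2 scale in siCtrl (SE 0.0841, edgeR's adjusted p = 5.7e-08) and by 0.91 in siPRMT1 cells (SE 0.0614, adjusted p = 1.9e-08). Cdh13 fell by 1.58 in siCtrl and by 0.87 in siPRMT1 cells. Cdh11 and Pcdh18 were called lower at day 3 in siCtrl cells, with log2 fold changes of -1.09 and -1.33, but in siPRMT1 cells their values of -0.33 and -0.36 were under the threshold on size, with edgeR's adjusted p of 0.00015 and 0.00070. Cdh26 fell by 2.25 on the log2 scale in siCtrl cells (SE 0.185, edgeR's adjusted p = 4.2e-06) and stood at -0.02 in siPRMT1 cells (95% interval -0.339 to 0.294), where its FPKM overlapped between the days. Negr1 rose by 1.23 on the log2 scale in siCtrl (SE 0.180, edgeR's adjusted p = 0.00022) and by 2.54 in siPRMT1 cells (SE 0.154, adjusted p = 6.0e-09), reaching the same range at day 3.

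**Figure D3:**
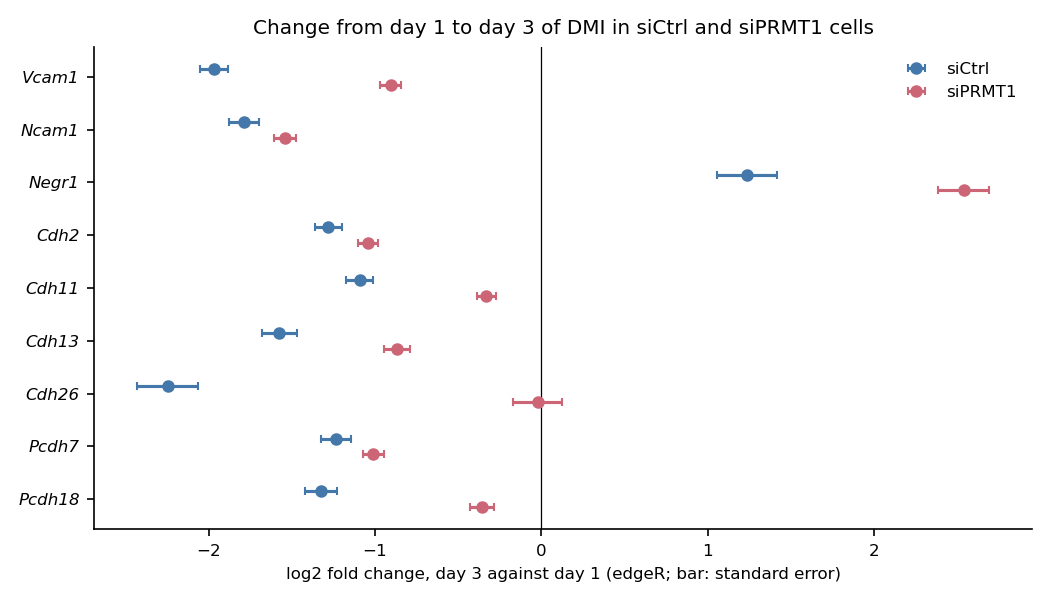
The log2 fold change of day 3 against day 1 of DMI (x axis, edgeR, bars: standard error) for the 9 adhesion genes tested (y axis), in siCtrl cells in blue and siPRMT1 cells in red. All but Negr1 lie below 0 in siCtrl cells, from -2.25 to -1.09, and the siPRMT1 values lie to the right of the siCtrl values.

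By FPKM, which takes gene length into account, the members spanned 3 ranges. In siCtrl cells at day 1, Cdh11 (71.9 ± 3.02, SD, n = 3), Cdh13 (53.9 ± 6.12), Vcam1 (43.2 ± 0.881) and Cdh2 (27.1 ± 0.443) were abundant. Ncam1 (8.16 ± 0.246), Pcdh7 (7.31 ± 0.550), Pcdh18 (6.84 ± 0.0551) and Cdh26 (2.17 ± 0.350) were intermediate, and Negr1 (0.170 ± 0.0300) and Icam1 (0.0467 ± 0.0115) were scarce. Of the neighbours in this order, Pcdh7 and Pcdh18 alone overlapped. In siCtrl cells at day 3, Vcam1 (11.6 ± 0.748) overlapped Cdh2 (11.7 ± 0.818), while in siPRMT1 cells at day 3 every Vcam1 value (23.1 ± 0.745) lay above every Cdh2 value (14.1 ± 0.859) and within the range of Cdh13 (24.4 ± 2.91). Across the 4 conditions, mean levels were highest in a day 1 condition and lowest in siCtrl cells at day 3 for Vcam1, Ncam1, Cdh2, Cdh11, Cdh13, Cdh26, Pcdh7 and Pcdh18. Neighbouring conditions overlapped only between the 2 day 1 conditions for Vcam1 and Pcdh18, between siPRMT1 day 1 and siPRMT1 day 3 for Cdh26, between the 2 day 3 conditions for Negr1, and throughout for Icam1.

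The summed fibroblast or preadipocyte markers and the summed adipocyte markers differed between the days, and between siCtrl and siPRMT1 cells at day 3, but not every marker did. At day 1 the adipocyte sums also lay apart between siCtrl and siPRMT1 cells, while the fibroblast or preadipocyte sums overlapped. The 6 fibroblast or preadipocyte markers (Pdgfra, Pdgfrb, Thy1, Dlk1, Col1a1 and Col3a1) summed to 916 to 1025 FPKM in siCtrl and 904 to 957 in siPRMT1 cells at day 1, and to 460 to 493 in siCtrl and 541 to 621 in siPRMT1 cells at day 3. One of the 6, Pdgfra, was called higher at day 3 by 0.60 on the log2 scale (SE 0.0646, edgeR's adjusted p = 2.0e-05). Col3a1 (0.43, adjusted p = 0.00035) and Pdgfrb (0.41, adjusted p = 0.0029) were under the threshold on size. Col1a1, Thy1 and Dlk1 stood at 0.15, 0.11 and -0.07, with edgeR's adjusted p of 0.28, 0.54 and 0.70. The 5 adipocyte markers (Adipoq, Plin1, Fabp4, Cidec and Lpl) summed to 100 to 111 FPKM in siCtrl and 81.6 to 94.5 in siPRMT1 cells at day 1, and to 2509 to 2723 in siCtrl and 1957 to 2145 in siPRMT1 cells at day 3. Adipoq, Plin1 and Cidec were called lower at day 3, while Lpl (-0.48, edgeR's adjusted p = 0.00017) and Fabp4 (-0.13, adjusted p = 0.34) were not. At day 1 edgeR called Cidec alone of 4 tested lower, while DESeq2 called Cidec and Fabp4 (adjusted p = 0.0031 and 0.040). Cidec lost its day 3 call without siCtrl replicate 2 (-0.47) and its day 1 call without siCtrl replicate 2 or any of the siPRMT1 libraries (edgeR's adjusted p up to 0.16). The part of this shift in the levels of the adhesion genes was not tested, and in bulk RNA fewer cells of a type and less RNA per cell cannot be told apart. Endothelial markers, of interest for Vcam1, summed to at most 0.980 FPKM in any library, leukocyte markers to at most 2.86, neural markers, of interest for Ncam1 and Negr1, to at most 0.610, and muscle markers to at most 6.83. Of the endothelial list, Tie1 had a mean of 0 FPKM in each condition but siPRMT1 day 3, where the mean was 0.00333. The 2 tested over the course in siCtrl cells, Pecam1 and Cdh5, were called higher at day 3 than at day 1. Their log2 fold changes were 2.47 and 2.14 (edgeR's adjusted p = 2.2e-05 and 0.00029), reaching means of 0.553 and 0.253 FPKM.

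The other cadherins tested were called in both directions at day 3. Of 44 other cadherin superfamily genes, 43 of them in the table, 13 were tested at day 3, of which 1 was called higher and 2 lower, with a median log2 fold change of 0.0617. Fat4, a giant cadherin of planar cell polarity, had 1.87 FPKM ± 0.203 in siCtrl and 2.83 FPKM ± 0.317 in siPRMT1 cells (SD, n = 3), for a log2 fold change of 0.59 (SE 0.101, edgeR's adjusted p = 0.00090). Clstn3, a calsyntenin known from adipocytes and synapses, had 7.84 FPKM ± 0.575 against 3.68 FPKM ± 0.0702 (SD, n = 3), for a log2 fold change of -1.10 (SE 0.0867, adjusted p = 1.5e-06). Cdh5, also on the endothelial list, was at 0.253 FPKM ± 0.0451 against 0.110 FPKM ± 0.0700 (SD, n = 3), for a log2 fold change of -1.20 (SE 0.361, edgeR's adjusted p = 0.034). The Fat4 call was lost without siPRMT1 replicate 3 (0.49), and that of Cdh5 without siCtrl replicate 1 or 3 or siPRMT1 replicate 1 or 3 (edgeR's adjusted p from 0.058 to 0.14). DESeq2 called 1 of the list higher and 1 lower at day 3, without Cdh5 (adjusted p = 0.096). At day 1, 11 were tested, with 0 called by edgeR or DESeq2, 1 higher and 0 lower at an unadjusted p under 0.05, and a median of -0.00852. Over the course in siCtrl cells, Fat4 fell as Cdh11 and Cdh2 did (called, edgeR's adjusted p = 1.1e-05), while Clstn3 rose by 6.57 on the log2 scale from day 1 to day 3 in siCtrl cells (SE 0.177, edgeR's adjusted p = 3.9e-09).

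Among 55 other immunoglobulin superfamily adhesion genes, 51 of them in the table, 24 were tested at day 3, with 2 called higher, 2 lower and a median of 0.121. Jam3, a junctional molecule, had 7.09 FPKM ± 0.781 in siCtrl and 10.4 FPKM ± 0.197 in siPRMT1 cells (SD, n = 3), for a log2 fold change of 0.54 (SE 0.101, edgeR's adjusted p = 0.0019). Mcam, an adhesion molecule of vessel and stromal cells, had 23.9 FPKM ± 1.90 against 15.5 FPKM ± 1.24 (SD, n = 3), for a log2 fold change of -0.63 (SE 0.0851, adjusted p = 0.00014). Nectin3 (0.50, adjusted p = 0.0061) and Nrcam (-1.54, adjusted p = 0.0085, at 0.0600 FPKM or less in every library) were the others called, Nrcam being named after its value was seen. DESeq2 called 2 higher and 1 lower at day 3, without Nrcam (adjusted p = 0.050). Without siCtrl replicate 1 Jam3 stood at 0.44 and was not called, and Nectin3 lost its call without siCtrl replicate 2 or 3 or siPRMT1 replicate 1 (0.49, 0.46 and 0.38). At day 1, 26 were tested and 0 were called by edgeR or DESeq2, with 3 higher and 5 lower at an unadjusted p under 0.05 and a median of -0.0391. Vcam1, Jam3 and Nectin3 stood above the siCtrl level at day 3, and Mcam and Nrcam stood below it. At an unadjusted p under 0.05, edgeR gave 9 of the list higher and 8 lower at day 3.

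**Figure D4:**
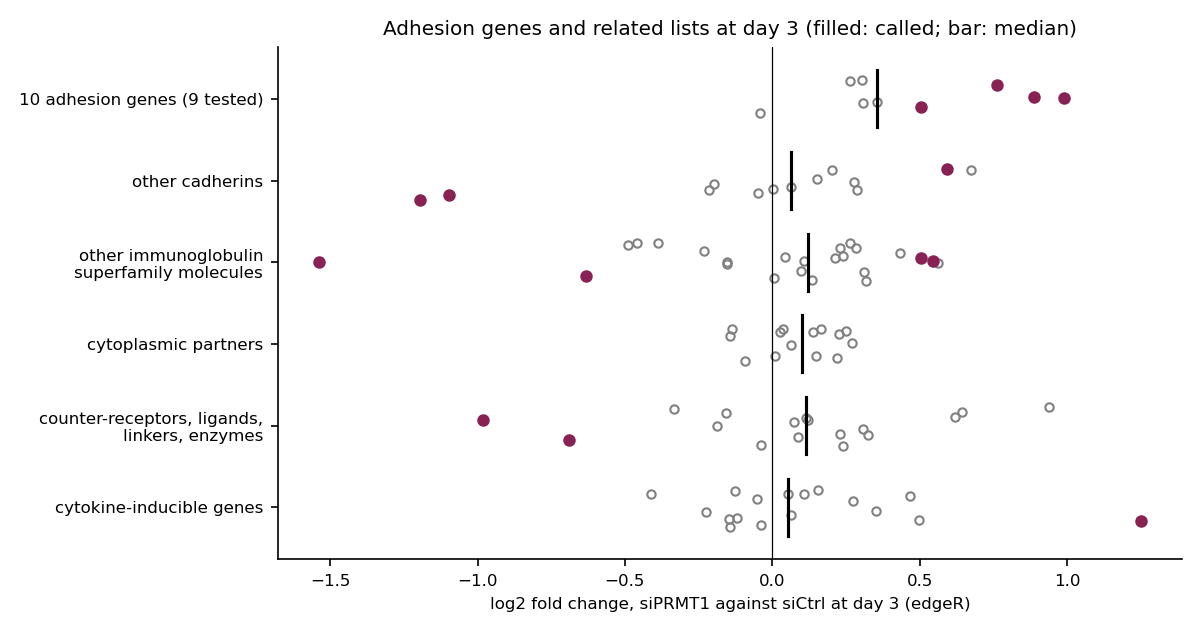
The log2 fold change of siPRMT1 against siCtrl at day 3 (x axis, edgeR) of each gene tested in the adhesion set and in 5 related lists (y axis), with filled circles for called genes, open circles for the others and a bar at each median. The 9 adhesion genes have a median of 0.355, and the 5 other lists have medians from 0.0547 to 0.121. The 9 were chosen with these contrasts known, so nothing is read from the difference in medians.

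None of the cytoplasmic partners of cadherins that were tested was called at day 3. Ctnnb1 (beta-catenin) had 161 FPKM ± 11.2 in siCtrl and 189 FPKM ± 5.44 in siPRMT1 cells at day 3 (SD, n = 3), for a log2 fold change of 0.22 (SE 0.0704, edgeR's adjusted p = 0.044). Ctnna1 (alpha-catenin) had a log2 fold change of 0.27 (SE 0.0634, adjusted p = 0.0091) and Ctnnd1 (p120-catenin) of 0.25 (SE 0.0677, adjusted p = 0.020). These 3 were named after their values were seen, as the catenins that bind Cdh2 and Cdh11. Of 14 partners tested at day 3, 0 were called by edgeR or DESeq2, with 6 higher and 0 lower at an unadjusted p under 0.05, log2 fold changes from -0.14 to 0.27 and a median of 0.10. At day 1, 1 of 15 was called lower and 0 higher by edgeR or DESeq2 (7 lower and 1 higher at an unadjusted p under 0.05), with a median of -0.170. It was Arvcf, a p120-related catenin, at 0.570 FPKM ± 0.0200 in siCtrl and 0.327 FPKM ± 0.0416 in siPRMT1 cells (SD, n = 3), for a log2 fold change of -0.85 (SE 0.158, edgeR's adjusted p = 0.020). That call was lost without siCtrl replicate 2 or any of the 3 siPRMT1 libraries (adjusted p up to 0.094).

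Of the integrin chains known from leukocyte receptors of Vcam1 and Icam1, the alpha chains were scarce. Itga4, the alpha chain of VLA-4, held 0 or 1 counts in each library, while Itgb1, its beta chain and that of many other integrins, had 146 FPKM ± 7.40, 135 FPKM ± 6.04, 101 FPKM ± 9.13 and 127 FPKM ± 13.9 in siCtrl day 1, siPRMT1 day 1, siCtrl day 3 and siPRMT1 day 3 (SD, n = 3). Itgal, the alpha chain of the Icam1 receptor LFA-1, had 0.760 FPKM ± 0.108 in siCtrl and 0.377 FPKM ± 0.0513 in siPRMT1 cells at day 3 (SD, n = 3), for a log2 fold change of -0.98 (SE 0.169, edgeR's adjusted p = 0.0010). Of the list of 22 counter-receptors, ligands, linkers and processing enzymes, 17 were tested at day 3, with 0 called higher by edgeR or DESeq2 (5 at an unadjusted p under 0.05), 2 lower (Itgal and Adipoq) and a median of 0.113. At day 1, 14 were tested, and Itgb7, a beta chain that also pairs with Itga4, was called higher (0.75, SE 0.146, edgeR's adjusted p = 0.022), with 0 called lower by edgeR or DESeq2 (3 at an unadjusted p under 0.05) and a median of -0.0187. The Itgb7 call was kept in 1 of 6 fits with a library left out, the one without siCtrl replicate 3, and its adjusted p reached 0.11 in the others.

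Vcam1 and Icam1 are known to be induced by cytokines through NF-kB, so 20 other cytokine-inducible genes of that pathway were set beside them. At day 3, 17 were tested, with 1 called higher (6 at an unadjusted p under 0.05), 0 called lower by edgeR or DESeq2 (2 at that p) and a median of 0.0547. The 1 was Ccl2, a monocyte chemokine, at 8.19 FPKM ± 1.55 in siCtrl and 19.9 FPKM ± 1.30 in siPRMT1 cells (SD, n = 3), for a log2 fold change of 1.25 (SE 0.125, edgeR's adjusted p = 1.2e-05). At day 1, 19 were tested with 2 called higher, Il6 (1.17, SE 0.195, adjusted p = 0.013) and Ptgs2 (0.82, SE 0.179, adjusted p = 0.031), 0 called lower by edgeR or DESeq2 (1 at an unadjusted p under 0.05) and a median of 0.111. At that unadjusted p, edgeR gave 7 higher. DESeq2 called 3 higher, the other being Ccl2 (0.68, adjusted p = 0.0097). With 1 library left out, the Ccl2 call was kept in all 6 fits, while at day 1 Il6 lost its call without siCtrl replicate 2 or siPRMT1 replicate 2 or 3 (edgeR's adjusted p up to 0.087) and Ptgs2 in all fits but that without siCtrl replicate 3 (adjusted p up to 0.13). Vcam1 itself stood at -0.06 at day 1, and Icam1 stayed at a few counts throughout.

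For each tested member, the genes with the most similar profile over the 12 libraries were listed among 12468 genes, by Pearson's r of log2 normalized counts, as a description. The points share their libraries and are dominated by the difference between the days. Vcam1 was closest to Ahr (0.996), Ctla2a (0.994) and Prss23 (0.993), and Pcdh18 to Capn6 (0.995), Dcn (0.995) and Pip (0.985). Cdh26 had the least close neighbours, Sumf1 (0.976), Bgn (0.974) and Slc6a6 (0.969), followed by Cdh11 with Phldb2 (0.988), Zfpm2 (0.987) and Igf2bp3 (0.987). Ncam1 was closest to Fn1 (0.998), Ccdc136 (0.997) and Vdr (0.997), Cdh2 to Lpar1 (0.997), Zfp36l1 (0.996) and Bicc1 (0.996), and Cdh13 to Pbxip1 (0.997), Clip3 (0.995) and Armcx2 (0.994). Pcdh7 was closest to Mdm1 (0.998), Eya1 (0.996) and Prkg2 (0.995), and Negr1, alone in rising, to Kat2b (0.994), Tbl1x (0.987) and Fam214a (0.987).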

How the data were processed

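RNA from 12 libraries of 3T3-L1 cells was analysed. Per the submitters' processing notes, cutadapt 1.11, HISAT2 2.1.0 and RSEM 1.2.6 were used with mm10. The role of RSEM, the strand setting and the treatment of reads mapping to several places are not given in the sources used here. The authors deposited whole-number counts per gene without normalization, and FPKM values, which were recomputed from the counts, gene lengths and library totals to within 0.00500. The table of counts lists RefSeq symbols with GRCm38 exons, and 0 columns were left unused.

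Counts were tested in R 4.3.3 with edgeR 4.0.16 (filterByExpr, TMM, quasi-likelihood test), 3 against 3 libraries for knockdown at each day and for the course in each siRNA, and all 12 for the interaction. The SE is the absolute log2 fold change over the square root of F, and 95% intervals use the t quantile of the fit. DESeq2 1.42.0 and limma 3.58.1 on log2(FPKM + 1) were alternatives. The scripts were first tested on simulated data with known changes. A count of 0 allows 3 counts (0.0708 to 0.198 CPM across libraries), counting error only.

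The 10 members, the related lists and the markers were chosen with earlier results of these data known. Named besides the members are up to 3 called genes per list and day with the smallest adjusted p, the 3 genes most similar to each member, the marker genes and Prmt1. The TATA and C/EBP-like letters, and the genes Adipor1, Adipor2, Itga4, Itgb1, Ctnnb1, Ctnna1, Ctnnd1 (day 3), Nrcam, Fabp4 and those named for the interaction alone, were added after their values were seen. Promoter sequences come from RefSeq on GRCm38.p6.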

Additional observations from a re-analysis of the deposited data

Results flagged for a closer look

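For 6 of the 9 members tested, the knockdown difference itself differed between day 3 and day 1 by a test of that difference (interaction of siRNA and day over 12 libraries, edgeR's adjusted p). Among all 14612 genes tested, 4.77% were called more positive and 3.47% more negative. The members were chosen by their levels in these same libraries, so the test is not independent support. On the log2 scale, the day 3 difference minus the day 1 difference was 2.23 for Cdh26 (-1.45 at day 1, 0.76 at day 3), 1.32 for Negr1 (-1.34 and -0.04), 1.07 for Vcam1 (-0.06 and 0.99), 0.98 for Pcdh18 (-0.07 and 0.89), 0.77 for Cdh11 (-0.25 and 0.50) and 0.72 for Cdh13 (-0.34 and 0.36). Of these, Cdh26 was called at both days and in opposite directions.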

How the results depend on the processing

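The 3 libraries per condition and the low counts of Negr1 and Icam1 limit what could be detected. Of the log2 fold changes under all alternatives, 689 kept their direction and call, 14 lost the call and 3 changed sign, none of the 3 called, all with 1 library left out. Those were Cdh2 at day 1 (-0.0119 to 0.0493, the lowest without siPRMT1 replicate 2), Negr1 at day 3 (-0.108 to 0.0651, the highest without siCtrl replicate 1) and Cdh26 from day 1 to day 3 in siPRMT1 cells (-0.0886 to 0.0834, the highest without siPRMT1 day 1 replicate 1). Leaving out 1 library in turn gave 1 to 2 members called lower at day 1, with Negr1 lost, and 3 to 4 called higher at day 3, with Cdh11 lost. On log2(FPKM + 1), with or without the filter on low FPKM, and on log2(FPKM + 0.1), limma called 1 member lower at day 1 and 0 rising from day 1 to day 3 in siCtrl or siPRMT1 cells, because Negr1 lies under the filter of 1 FPKM or is compressed by the pseudocount. On log2(FPKM + 1), with or without that filter, it called 2 higher at day 3, Cdh11 standing at 0.499 and Cdh26 at 0.29 without the filter and left out by it. With no fold threshold 8 of the 9 were called higher at day 3, and the share of all genes under that rule was not counted. At an unadjusted p under 0.05 edgeR also gave 8 higher, beside 2149 of all 14039 genes tested. With all 12 libraries in 1 model Cdh11 stood at 0.49. Same-numbered replicates of siCtrl and siPRMT1 had correlated deviations of -0.0316, 0.128 and 0.216 at day 1 and 0.160, 0.0788 and -0.0204 at day 3, so the numbers were not taken as pairs. With the replicate block, 2 members were called lower at day 1 and 4 higher at day 3, and no member's call changed.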

Other observations

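Among the related genes, 4 other immunoglobulin superfamily molecules had a knockdown difference that was more positive at day 3 than at day 1 by the interaction of siRNA and day, and 2 had a more negative one, out of 26 tested over 12 libraries. The genes were named after their values were seen. Cdon and Boc, surface co-receptors that associate with cadherins in muscle precursors, had log2 interactions of 0.73 (SE 0.0907, edgeR's adjusted p = 0.00014) and 0.66 (SE 0.138, adjusted p = 0.0068), and Pvr, a nectin-like molecule, had -0.70 (SE 0.116, adjusted p = 0.0016). Outside that list, Ctnnd1 had 0.57 (SE 0.0844, edgeR's adjusted p = 0.00071) and Fat4 0.69 (SE 0.137, adjusted p = 0.0050). These 5 were called in each of the 12 fits that left out 1 library.

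The other interaction calls among adhesion genes depended on single libraries. Nectin3 (0.69, edgeR's adjusted p = 0.034) lost its call in 7 of the 12 fits, Itgb1 (0.51, adjusted p = 0.011) in 6, Icam5 (1.33, adjusted p = 0.031) in 5, Mcam (-0.67, adjusted p = 0.019) in 4 and Arvcf (0.90, adjusted p = 0.021) in 3. Their largest adjusted p in those fits was 0.095, 0.047, 0.085, 0.066 and 0.059, and Itgb1 was lost by size, at 0.41 to 0.49. All 5 kept their call without siCtrl day 1 replicate 3, the library that stood apart from its replicates.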
